A study of Mus musculus with 2 samples.

Results

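Gpr65 encodes GPR65 (also known as TDAG8), a cell surface receptor for extracellular protons, and was described here in group 2 innate lymphoid cells (ILC2s) sorted from mouse lung. It was 1 of 32285 genes in the count tables and was selected on its lower level in the Pac1-/- library, so the overall ratio between the genotypes is a description and carries no test. The study profiled lung ILC2s by droplet-based scRNA-Seq in 1 WT library and 1 Pac1-/- library, each made from about 13000 sorted cells pooled over 4 to 5 mice of 6 to 8 weeks of age on the C57BL/6J background. Pac1-/- mice carry a constitutive deletion of Pac1 (Dusp2), a nuclear phosphatase of MAP kinases, in every cell, whereas WT mice carry intact Pac1. Viable cells without lineage markers were sorted on surface CD90.2, ST2 together with Sca-1, and no treatment was named for these samples. Cells could not be assigned to a mouse, so all intervals below are 95% intervals for counting error only, and differences between libraries and between genotypes cannot be told apart.

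GPR65 couples mainly to the stimulatory G protein Gs. When the pH outside the cell falls, histidines on the receptor take up protons, adenylyl cyclase makes cAMP, and protein kinase A phosphorylates transcription factors of the CREB family, which act on cAMP response elements; coupling to G12/13 proteins is also known. The receptor is found mostly on lymphocytes and myeloid cells, and in the airway it has been linked to the survival of eosinophils in acidic tissue. The receptor for calcitonin gene–related peptide (CGRP), built from Calcrl and Ramp1, couples to Gs as well, and the study asked how PAC1 bears on CGRP signalling in ILC2s.

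In mm10 coordinates (GRCm38, GENCODE vM21), Gpr65 (ENSMUSG00000021886) lies on the plus strand at chr12:98268635-98276644. It has 2 exons. Exon 1 (chr12:98268635-98268714) is entirely 5′ UTR. Exon 2 (chr12:98274656-98276644) holds the rest of the 5′ UTR, the coding sequence (chr12:98275090-98276100) and the 3′ UTR, and is the exon next to the polyA tail from which the libraries were primed. The promoter of Gpr65 is shown beside those of Calca and Nr4a3, which were higher in Gpr65-positive cells of both libraries as described below, so that the letters of the cAMP response element can be compared between them. Calca encodes the precursor of CGRP, and Nr4a3 an orphan nuclear receptor induced by cAMP. Each sequence is the 250 bases before the RefSeq start site, written 5′ to 3′ on the gene's strand (GRCm38.p6), and capitals mark the core TGACG of the cAMP response element on either strand.
Gpr65, chr12:98268385-98268634, plus strand: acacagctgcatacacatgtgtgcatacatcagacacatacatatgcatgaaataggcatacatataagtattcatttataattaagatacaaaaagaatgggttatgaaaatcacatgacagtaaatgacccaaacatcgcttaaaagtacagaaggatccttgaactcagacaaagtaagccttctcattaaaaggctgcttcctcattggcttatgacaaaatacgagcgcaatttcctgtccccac
Calca, chr7:114636358-114636607, minus strand: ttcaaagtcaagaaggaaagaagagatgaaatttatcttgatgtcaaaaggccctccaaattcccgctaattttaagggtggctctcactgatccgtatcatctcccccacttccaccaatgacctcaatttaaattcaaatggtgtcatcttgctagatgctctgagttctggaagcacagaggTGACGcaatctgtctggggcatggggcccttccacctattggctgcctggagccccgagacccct
Nr4a3, chr4:48045055-48045304, plus strand: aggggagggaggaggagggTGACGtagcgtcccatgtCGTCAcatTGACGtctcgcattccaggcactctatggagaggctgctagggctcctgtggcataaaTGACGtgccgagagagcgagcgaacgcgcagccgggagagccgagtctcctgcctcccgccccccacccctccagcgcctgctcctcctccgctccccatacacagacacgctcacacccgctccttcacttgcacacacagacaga

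The core TGACG did not occur in the Gpr65 window, occurred 1 time in that of Calca, 65 bases before the start, and 4 times in that of Nr4a3. Over 32851 RefSeq promoters of this length, 17.8% held it. The full element TGACGTCA (1.55% of promoters), the AP-1 site TGANTCA (6.75%) and the GATA site GATAA (22.6%) were searched on both strands and were also not in the Gpr65 window. TGACG is contained in the full element, so both searches find the same letters there. These matches describe letters in the windows and not binding.

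The samples were first checked against their labels. Dusp2, the deleted gene, was at 26.0 CPM (UMIs of the gene divided by all UMIs, times 1000000) in WT and 0.09 CPM in Pac1-/- ILC2s, with 1419 and 5 UMIs. The libraries held 10866 WT and 9495 Pac1-/- barcodes with 56182065 and 60283285 UMIs, a UMI (unique molecular identifier) standing for 1 captured transcript. A minimum of 500 genes and a maximum of 10% UMIs of mitochondrial origin kept 8394 WT and 7087 Pac1-/- cells, with medians of 4186.5 and 5577 UMIs. Of 9 ILC2 markers, Gata3, Il1rl1, Rora and Il7r were found in 88.8% to 94.3% of WT cells and 90.7% to 94.8% of Pac1-/- cells. The others were found in fewer WT and Pac1-/- cells: Thy1 (CD90) in 49.0% and 51.6%, and Ly6a (Sca-1) in 35.9% and 60.1%. Il17rb was found in 32.6% and 38.9%, Klrg1 in 54.3% and 49.8%, and Areg in 60.1% and 56.1%. Cells gated on markers of other cell types numbered 42 and 62, and 29 barcodes occurred in both libraries. The summed level of the 8 T cell markers was 155.7 and 129.5 CPM, with Cd8a at 0 in both. Cd3g alone gave 118.8 and 93.7 CPM of it, and was found in 33.5% and 26.7% of cells. The 6 B cell markers summed to 7.55 and 14.9 CPM. Mast cell and basophil markers summed to 440.9 and 238.0 CPM, of which Kit gave 427.7 and 209.4 CPM. Erythroid markers summed to 67.2 and 227.1 CPM.

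Gpr65 was captured often in both libraries and less in the Pac1-/- library. WT cells held 22214 Gpr65 UMIs, 407 CPM (402 to 412), and Pac1-/- cells held 9025, 154.7 CPM (151.5 to 157.9). On the log2 scale Pac1-/- over WT thus stood at -1.40 (-1.43 to -1.36), which is 2.63-fold lower. The median gene stood at a log2 ratio of 0.19, so relative to it the Gpr65 ratio was -1.58 (-1.62 to -1.55). Of 12427 genes with at least 50 UMIs, 5.09% had a ratio at or below -1 relative to the median gene; the selection of Gpr65 used this contrast, so nothing is read from its place among them. A ratio below that of Gpr65 was seen in 197 of the 12427 genes, and in 21 of the 1515 genes that reached 100 CPM. Among these 21, Gm43305, Gm10076, Gm42031 and mt-Atp8 had the lowest ratios, and the ribosomal gene Rps29 was also there. Barcodes that failed the filter held 603 WT and 328 Pac1-/- Gpr65 UMIs at 376 and 168.7 CPM, close to the levels inside the filter.

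The difference was present at every depth of the cell. In 6 classes of cells by total UMIs, from 500 up to 16000 or more, the Gpr65 level ran from 342 to 443 CPM in WT and from 133 to 164 CPM in Pac1-/- ILC2s, with no overlap. The log2 ratio ran from -1.45 to -1.07. The ratio nearest to 0 came from the class from 1000 to under 2000 UMIs, which held 239 WT and 67 Pac1-/- Gpr65 UMIs (-1.48 to -0.68).

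To compare cells one by one, each was thinned at random to 1500 UMIs, which kept 7634 WT and 6564 Pac1-/- cells. At this depth a Gpr65 UMI was present in 37.7% of the WT library (36.6% to 38.8%) and in 19.2% of the Pac1-/- library (18.2% to 20.2%), and over 20 repeats the shares lay between 37.0% and 38.3% and between 17.8% and 19.6%. Without thinning the shares were 64.0% and 49.9%, at unequal depths. As a background, 1 of 8 WT and 1 of 12 Pac1-/- cells gated as stromal or endothelial held a Gpr65 UMI, at medians of 3066.5 and 2090 UMIs; these cells are too few to set a background level.

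Gpr65 was spread over many cells in both libraries rather than held by a few. In WT, 24.5% of the thinned cells held 1 Gpr65 UMI, 8.49% held 2, 2.99% held 3 and 1.72% held 4 or more, with a highest count of 12. In Pac1-/- ILC2s these shares were 15.4%, 3.09%, 0.55% and 0.20%, with a highest count of 5. Cells with a Gpr65 UMI held 1.55 on average in WT and 1.25 in Pac1-/-. The share of positive cells and the UMIs in each both fall when the mean count falls. They are therefore not separate changes, and fewer expressing cells cannot be told apart from less Gpr65 in each. The variance of the counts was 1.56 times the mean in WT and 1.26 times in Pac1-/-. Expressed as negative binomial dispersion, which allows for the lower mean, the values were 0.96 and 1.10, and over 20 further thinnings they ran from 0.93 to 1.08 and from 1.01 to 1.45. Of genes within 1.5-fold of the Gpr65 mean, 23 of 253 in WT and 60 of 735 in Pac1-/- ILC2s had a higher ratio of variance to mean, so in each library Gpr65 was more uneven between cells than most genes of its level.

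**Figure D1:**
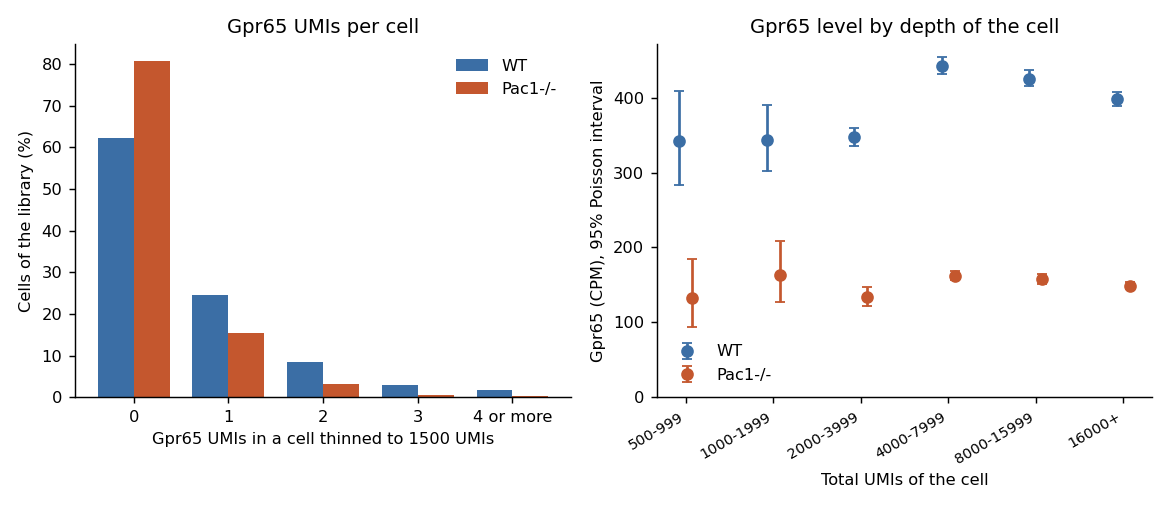
Left, percent of cells (y axis) with 0, 1, 2, 3 or 4 and more Gpr65 UMIs (x axis) after thinning to 1500 UMIs, in 7634 WT and 6564 Pac1-/- cells; right, Gpr65 level in CPM with its 95% Poisson interval (y axis) in 6 classes of total UMIs per cell (x axis). The Pac1-/- bars are higher at 0 and lower at every count above it, and the Pac1-/- points lie between 133 and 164 CPM, below all WT points.

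Cells were next divided by Il5 and Il13, the effector cytokines of ILC2s, and by Calca and Crem, a transcriptional regulator that is itself induced by cAMP. A cell was positive with 1 or more UMIs of the gene at the thinned depth. All 4 genes were themselves lower in the Pac1-/- library (relative log2 ratios of -1.01 for Il5, -0.54 for Il13, -0.68 for Calca and -1.21 for Crem), and the positive cells made up 33.2% and 19.3% of WT and Pac1-/- cells for Il5, 13.8% and 8.76% for Il13, 30.3% and 21.8% for Calca, and 32.7% and 19.0% for Crem. The strata of the 2 libraries therefore hold unequal parts of each. They divide the same cells on which Gpr65 was selected, so a lower Pac1-/- level within strata is a description and carries no test. A random thinning also sorts cells anew each time. Each log2 ratio of the 8 strata is therefore given for the first thinning, with its counting interval, and as the range over 20 further thinnings. Levels in CPM, the steps over UMIs and the further genes below are from the first thinning unless stated otherwise. Over all cells the first thinning had a Pac1-/- level of 160.1 CPM, just above the range of 147.8 to 159.6 CPM in the others.

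The Gpr65 level was lower in Pac1-/- ILC2s in all 8 strata, in the first thinning and in each of the 20 others. In Il5-positive cells it was 537 CPM in WT and 269 CPM in Pac1-/- ILC2s, a log2 ratio of -0.998 (-1.14 to -0.86; -1.24 to -0.97 over thinnings). Il5-negative cells stood at 317 and 134 CPM, a log2 ratio of -1.24 (-1.35 to -1.14; -1.38 to -1.20). Calca-positive cells stood at 589 and 256 CPM, a log2 ratio of -1.20 (-1.34 to -1.07), just outside the range of -1.40 to -1.20 over thinnings. Calca-negative cells stood at 303 and 133 CPM, a log2 ratio of -1.19 (-1.29 to -1.08; -1.36 to -1.17). Calca-positive over Calca-negative cells thus gave 0.96 in WT (0.83 to 0.98 over thinnings) and 0.94 in Pac1-/- ILC2s (0.66 to 0.99). Crem-positive cells stood at 573 and 280 CPM, a log2 ratio of -1.03 (-1.17 to -0.89) that lay outside the range of -1.32 to -1.08 over thinnings. Crem-negative cells stood at 301 and 132 CPM, a log2 ratio of -1.19 (-1.29 to -1.08; -1.28 to -1.10). For these 3 genes the ranges over thinnings of positive and negative cells overlapped.

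At this depth the smallest of the 8 differences was in Il13-positive cells. They stood at 477 CPM in WT (1053 cells) and 298 CPM in Pac1-/- ILC2s (575 cells), a log2 ratio of -0.68 (-0.89 to -0.47; -1.15 to -0.65 over thinnings), and Il13-negative cells at 376 and 147 CPM, a ratio of -1.36 (-1.45 to -1.26; -1.46 to -1.32). The ranges over thinnings of Il13-positive and Il13-negative cells did not overlap, which describes the random draws and not counting error. The Il13-positive ratio was -1.09 (-1.42 to -0.77) in cells thinned to 1000 UMIs and -1.25 (-1.31 to -1.20) without thinning. The Il13-negative ratios were further from 0, at -1.37 (-1.48 to -1.26) and -1.47 (-1.51 to -1.42). At 1000 UMIs these counting intervals overlapped. Cells with both Il5 and Il13 stood at 532 CPM in WT (561 cells) and 432 CPM in Pac1-/- ILC2s (241 cells) in the first thinning, a log2 ratio of -0.30 (-0.58 to -0.04). This draw was not typical, since the 20 further thinnings gave -1.10 to -0.48 with a median of -0.82 (medians of 589 and 338 CPM). It also moved with depth, to -0.99 in cells thinned to 1000 UMIs, -0.80 at 3000 UMIs and -1.23 without thinning. Cells with Il13 alone gave -1.04 (-1.42 to -0.71 over thinnings), cells with Il5 alone -1.22 (-1.30 to -1.06), and cells with neither -1.24 (-1.39 to -1.21). In the 20 further thinnings the range of cells with both cytokines therefore overlapped with those of cells with either alone and not with that of cells with neither.

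For comparison, 8 other genes that went along with Gpr65 or belong to the lists below were set beside it in the same cells, with medians over the 20 thinnings. In cells with neither Il5 nor Il13, Crem (-1.14), Nr4a3 (-1.03), Ramp3 (-0.73) and Calca (-0.51) were lower in Pac1-/- ILC2s, as was Gpr65 (-1.31). In cells with both cytokines Crem was at -0.19 (-0.39 to -0.05), Nr4a3 at -0.50 (-0.72 to -0.30), Ramp3 at -0.12 (-0.46 to 0.01) and Calca at 0.25 (0.04 to 0.37). Odc1 went from -0.66 (-0.75 to -0.58) to -0.17 (-0.40 to 0.00) and Icos from 0.15 (0.07 to 0.29) to 0.72 (0.39 to 1.02). For Lmo4 the ranges of cells with neither (-0.45 to -0.35) and with both (-0.41 to -0.04) overlapped, as did those for Areg (-0.04 to 0.08 and -0.04 to 0.43). Apart from Lmo4 and Areg, the ratios of these genes were thus nearer to 0 or higher in the cells with both cytokines over the 20 thinnings, and that of Gpr65 (-0.82) was also nearer to 0 there. Cells with both cytokines had medians of 5380 UMIs in WT and 7465 UMIs in Pac1-/- before thinning, and cells with neither had 4105 and 5578. In the first thinning, cells with both cytokines held 2372 CPM of Il5 in WT and 2705 CPM in Pac1-/-. Their Il13 stood at 1453 and 1895 CPM, so these cells were not alike in cytokine level between the libraries. What this does to the ratios was not tested.

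**Figure D2:**
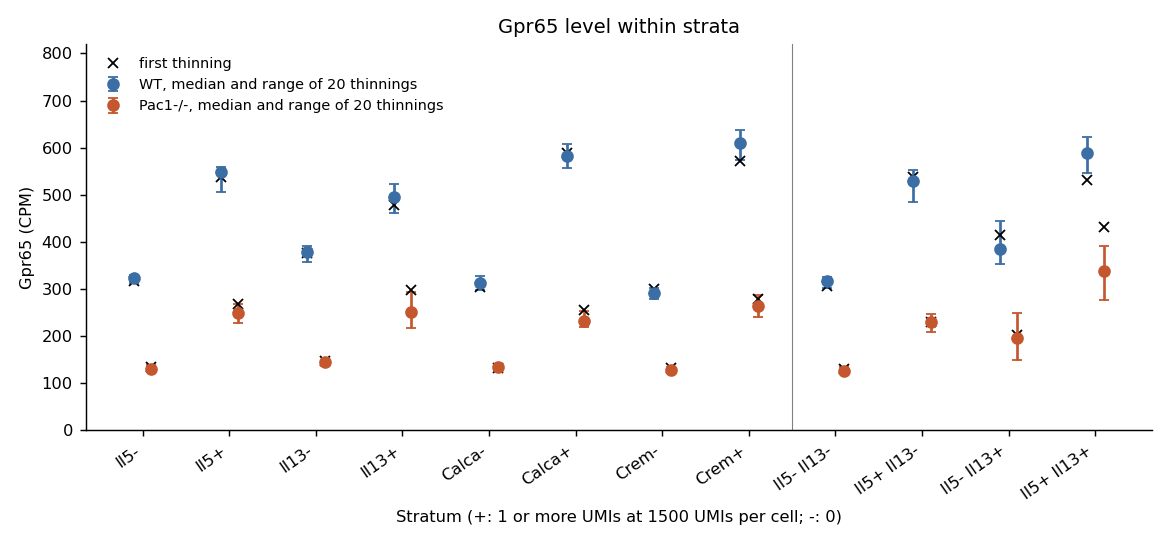
Gpr65 level in CPM (y axis) in cells with (+) or without (-) a UMI of Il5, Il13, Calca or Crem and in the 4 combinations of Il5 and Il13 (x axis), at 1500 UMIs per cell. Points and bars are the median and range of 20 random thinnings and crosses the first thinning; the Pac1-/- points lie below the WT points in all 12 strata, and the crosses for cells with both Il5 and Il13 (532 and 432 CPM) lie outside the bars.

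Mixing all 4 genes gave 16 strata, of which 15 held at least 50 cells in each library, and the Pac1-/- level was lower in all 15, with log2 ratios from -1.63 to -0.13. In 3 of them, all with both Il5 and Il13, the counting interval included 0, namely cells without Calca and Crem (-0.13, -0.83 to 0.52), with Crem alone of these (-0.14, -0.72 to 0.41) and with both Calca and Crem (-0.35, -0.79 to 0.07). In the 20 further thinnings 12 to 15 strata reached that size, and Pac1-/- was lower in every one of them. Weighting the Pac1-/- strata by the WT mix moved the thinned log2 ratio from -1.28 to -1.12 for Il5, -1.22 for Il13, -1.19 for Calca, -1.11 for Crem and -1.0 for the 4 genes together. Over thinnings the unweighted ratio ran from -1.43 to -1.27 and the ratio at the 4-gene mix from -1.18 to -1.0. The Pac1-/- level was thus still lower with the share of positive cells made equal. Positive cells were not alike in level: 527 of 2500 Crem-positive WT cells and 183 of 1246 in Pac1-/- held 3 or more Crem UMIs. What this difference does to the weighted ratio was not tested.

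Within each library the Gpr65 level climbed with the UMIs of Crem, Calca and Il5 in the first thinning. From 0 to 1, 2 and 3 or more Crem UMIs it was 301, 459, 646 and 806 CPM in WT. In Pac1-/- ILC2s the same steps were 132, 227, 326 and 466 CPM, so cells with 3 or more Crem UMIs in Pac1-/- stood at the level of WT cells with 1. Over Calca the WT steps were 303, 450, 610 and 826 CPM. The Pac1-/- steps over Calca were 133, 205, 301 and 322 CPM, and the intervals of the upper 2 overlapped (253 to 355 and 276 to 373). Over Il5 the level was 317 CPM in WT and 134 CPM in Pac1-/- cells without a UMI, and 728 and 400 CPM in those with 3 or more.

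**Figure D3:**
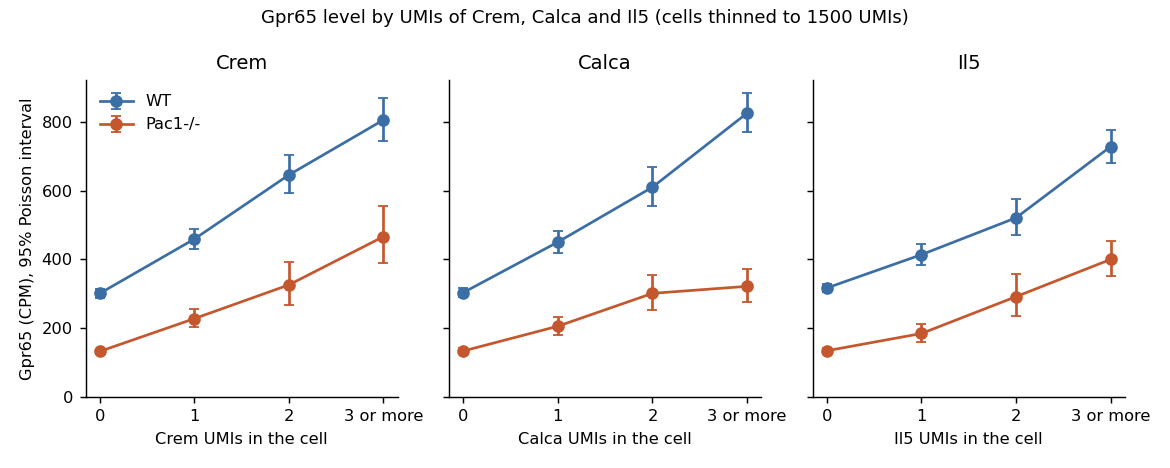
Gpr65 level in CPM with its 95% Poisson interval (y axis) in cells with 0, 1, 2 or 3 and more UMIs (x axis) of Crem, Calca and Il5, at 1500 UMIs per cell in WT and Pac1-/- ILC2s. The level is higher with each step in both libraries (301 to 806 CPM in WT and 132 to 466 CPM in Pac1-/- over Crem), and every Pac1-/- point lies below the WT point of the same step.

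Further genes were used to divide the cells, all given as the log2 ratio of the Gpr65 level in positive over negative cells in the first thinning. For Nr4a1 in WT this value (0.497) lay just below the range of 0.502 to 0.734 over 20 further thinnings. The other values given here lay inside theirs. Cells with Tnfrsf9, which encodes the costimulatory receptor 4-1BB, had more Gpr65, by 0.91 (0.70 to 1.11) in WT and 1.11 (0.66 to 1.54) in Pac1-/- ILC2s, as had cells with the cAMP-induced nuclear receptor Nr4a1, by 0.50 (0.39 to 0.61) and 0.67 (0.51 to 0.82). Cells with a UMI of the CGRP receptor subunits did not follow this order. For Calcrl the ratio was -0.24 (-0.35 to -0.13) in WT and -0.17 (-0.40 to 0.05) in Pac1-/-, and for Ramp1 -0.28 (-0.38 to -0.18) and -0.27 (-0.43 to -0.12). Cells with Lgals3, which encodes galectin-3, had less Gpr65, at -0.53 (-0.97 to -0.12) and -0.43 (-0.70 to -0.17). In WT, cells with and without a Dusp2 UMI did not differ beyond counting error (-0.09, -0.35 to 0.15, over 253 positive cells). Dusp2 was detected in only 3.31% of the thinned WT cells, so cells without a UMI may still have expressed it. This split cannot decide whether Gpr65 follows Dusp2. With Tnfrsf9, Nr4a1, Calcrl, Ramp1 and Lgals3 too the Pac1-/- level was below the WT level, in positive and in negative cells alike. For Dusp2 the positive cells could not be compared, since only 1 Pac1-/- cell held a UMI of it.

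Which genes go along with Gpr65 was asked over all 5010 other genes with at least 200 thinned UMIs in each library. Their CPM in cells with a Gpr65 UMI (2880 in WT and 1260 in Pac1-/-) was divided by that in cells without (4754 and 5304), with 10 CPM added to both, and a log2 ratio of at least 0.5 was called. This called 126 genes in WT (2.51%), 128 in Pac1-/- (2.55%) and 85 in both (1.7%), which is 67.5% of the WT list and 66.4% of the Pac1-/- list. Across genes the ratios of the 2 libraries had a Pearson r of 0.70, with genes not independent of each other. Since the libraries share no cells, the 2 lists came from separate cells. Positive and negative cells had nearly the same number of detected genes at the thinned depth (medians of 752 and 758 in WT, 770.5 and 784 in Pac1-/-), although positive cells had been deeper before thinning (4772 against 4247 UMIs and 6208.5 against 5710). Over 20 further thinnings 54 to 82 genes were called in both libraries, and 26 of the 85 were called in every one.

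The 12 genes with the highest ratios were Il5, Crem, Jdp2, Odc1, Fes, Calca, Ramp3, Plaur, Hilpda, Ell2, Cxcl3 and Dgat1. Il5 stood at 935 CPM in Gpr65-positive and 445 CPM in Gpr65-negative WT cells, and at 657 and 282 CPM in Pac1-/- ILC2s. Crem stood at 603 and 287 CPM in WT and 368 and 163 CPM in Pac1-/-. Calca stood at 662 and 314 CPM in WT and 530 and 276 CPM in Pac1-/-. All 3 were thus higher in positive cells of either genotype, with log2 ratios from 0.92 to 1.19. Odc1, the rate-limiting enzyme of polyamine synthesis, had ratios of 0.94 and 0.95. Ramp3, a receptor activity-modifying protein that pairs with Calcrl to form an adrenomedullin receptor, had 0.90 in WT and 1.06 in Pac1-/-. Hilpda and Dgat1, which act in lipid droplet storage, had 0.87 and 0.97, and 0.83 and 0.91. Jdp2 is an AP-1 family repressor, Fes a cytoplasmic tyrosine kinase, Plaur the urokinase receptor, Ell2 an elongation factor of RNA polymerase II, and Cxcl3 a chemokine. Of the 12, Jdp2 was called in 19 and Fes in 17 of the 20 further thinnings, and the other 10 in each of them.

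Of the 85 genes, 83 stood below the median gene in the ratio of Pac1-/- over WT, with a median of -0.64. Cxcl3 was at 1.11, above the median gene. The median is 0 by construction over the 12427 genes with at least 50 UMIs. The share below it among the 5010 compared genes was not computed. Gpr65 was selected on its lower Pac1-/- level in these same cells. A lower level of genes that go along with it was thus favoured, and nothing is read from this count. Of these 85 genes, 70 matched a RefSeq promoter, and 39 of the 70 (55.7%) held the core TGACG in the 250 bases before a start. It was held by 35.6% of the 4042 compared genes with a promoter and 19.8% of all 27025 genes. The full element was in 6 of the 70 (8.57%, beside 3.86% of the compared genes). The AP-1 site TGANTCA was in 3 of them (4.29%, beside 4.97%). These 85 genes are those of the first thinning, and the shares were not computed for the 26 called in every further thinning.

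Few genes went the other way. Log2 ratios of -0.5 or less in both libraries were reached by 6 genes (0.12%): Scgb1a1, Cd74, Tnf, Rinl, Spopl and Tasp1. Scgb1a1, the secretory protein of airway club cells, stood at 20.6 CPM in Gpr65-positive and 111.9 CPM in Gpr65-negative WT cells, and at 19.6 and 55.1 CPM in Pac1-/-. Cd74, the invariant chain of antigen-presenting cells, stood at 17.4 and 35.9 CPM in WT and 20.6 and 58.9 CPM in Pac1-/-. Whether their UMIs came from other cells than ILC2s was not tested, and their Pearson r with Gpr65 over cells was -0.02 to -0.00. Over the 20 further thinnings Scgb1a1 was called in 20, Cd74 in 16, Tnf in 5, Spopl in 1 and Rinl and Tasp1 in 0. The next 6 in order, Tagap, Ddx55, Pibf1, Golga3, Gm36723 and Sirt7, did not reach -0.5 in both libraries, and none of them was called in a further thinning. The highest Pearson r of any gene with Gpr65 over cells was 0.25 (Sub1, WT) and 0.19 (H3f3b, Pac1-/-), which is weak at these counts.

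**Figure D4:**
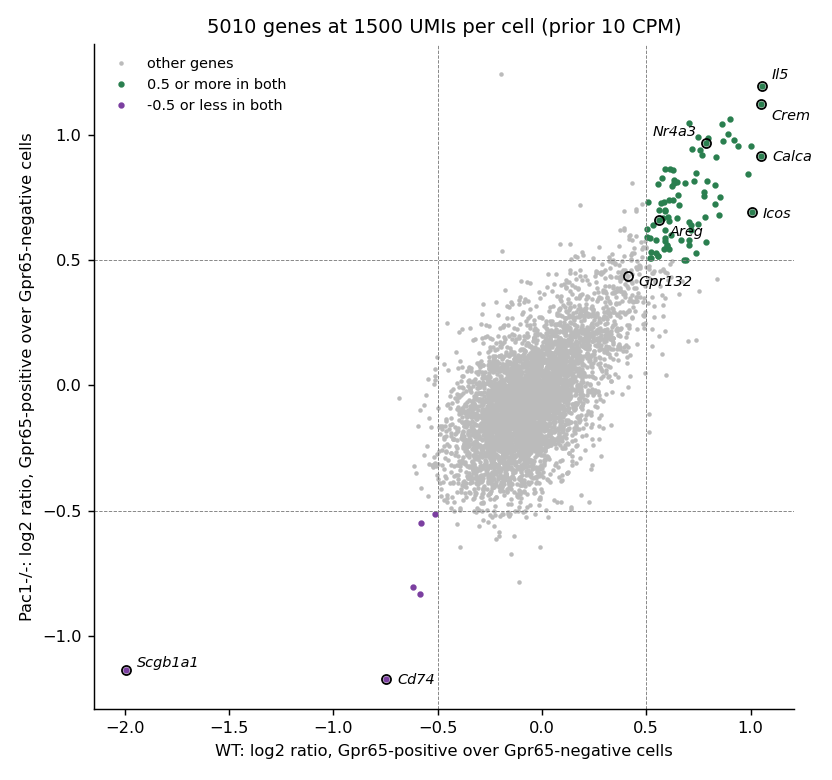
Each of 5010 genes by its log2 ratio of CPM in Gpr65-positive over Gpr65-negative cells in WT (x axis) and in Pac1-/- ILC2s (y axis), at 1500 UMIs per cell with 10 CPM added; dashed lines stand at 0.5 and -0.5. The 85 green genes, with Il5, Crem and Calca at the upper right, reach 0.5 in both libraries, and 6 purple genes, with Scgb1a1 and Cd74 lowest, reach -0.5 in both.

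Of the other proton receptors, Gpr4 and Gpr132 are given here. Gpr4 was at or near 0, with 8 WT and 2 Pac1-/- UMIs. Gpr132, which also lies on chromosome 12, stood at 160.1 CPM in WT and 141.8 CPM in Pac1-/- ILC2s, a ratio relative to the median gene of -0.36 (-0.41 to -0.32). Gpr132 was somewhat higher in Gpr65-positive cells (0.41 in WT and 0.44 in Pac1-/-), below the limit of 0.5. Of 6 genes for acid handling with enough UMIs, 5 were below and 1 above the median gene (median -0.27). Slc4a7, a sodium bicarbonate cotransporter, was lowest at -0.76 (-0.81 to -0.70).

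Among 8 other genes of Gs-coupled receptors 6 were below and 2 above the median gene, with a median of -0.71 beside 0 over all genes by construction. Calcrl was at -1.08 (-1.13 to -1.04), the prostacyclin receptor Ptgir at -0.85, Vipr2 at -0.77 and the prostaglandin receptor Ptger4 at -0.65. The adenosine receptor Adora2b was lower still at -1.77, on 81 and 29 UMIs. Ptger2, another prostaglandin receptor, was at 0.26 and Ramp1 at 0.12. In Gpr65-positive cells none of the 7 with a value reached 0.5 in both libraries, Adora2a coming nearest in WT (0.42) but not in Pac1-/- (0.12).

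Of 20 members of the cAMP pathway 13 were below and 7 above the median gene, with a median of -0.16. Crem (-1.21) and the phosphodiesterase Pde4a (-1.02) were the only 2 at or below -1. Gnas, which encodes Gs alpha, was at -0.22 and Creb1 at -0.20, whereas the adenylyl cyclase gene Adcy7 was at 0.75. In Gpr65-positive cells Crem alone of these reached 0.5 in both libraries. The 12 genes listed as cAMP targets were below the median gene in 11 cases (median -0.63), Nr4a3 at -1.18 and Nr4a1 at -0.92, and Dusp1 was at 0.33. Of the 11 with a value, Crem, Nr4a3, Rgs2 and Areg were called in Gpr65-positive cells in both libraries, beside 1.7% of all genes, and 10 of 11 had ratios above 0 in both, beside 24.2% of all genes. Areg encodes amphiregulin, a growth factor of tissue repair, and was at -0.17 relative to the median gene. Of the 5 genes listed for G12/13 coupling 3 were below and 2 above the median gene, from -0.60 to 0.64 with a median of -0.22.

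The study named a set of CGRP-responsive genes from other samples of the same genotypes, treated with CGRP in culture. It named them for higher expression or more accessible chromatin in WT than in Pac1-/- ILC2s. A lower Pac1-/- level was thus favoured by the choice, and nothing is read from the count that follows. Other than Gpr65, 8 of 8 of these genes were below the median gene (median -0.61), from Crem at -1.21 and Tnfrsf9 at -1.13 to Icos at -0.12. In Gpr65-positive cells all 5 with a value were above 0 in both libraries, and Calca, Crem and Icos reached 0.5 in both. Lmo4 was at 0.62 and 0.50 (just under the limit in Pac1-/-), and Plac8 at 0.74 in WT and 0.18 in Pac1-/-. Icos, an inducible costimulator, thus went along with Gpr65 within each library (1.01 and 0.69) while its own level hardly differed between the libraries.

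The neighbourhood of Gpr65 was uneven. Within 500 kb, 20 other genes were annotated, of which 10 were in the count tables and 6 had enough UMIs for a ratio. Galc, 9.2 kb away, was at -0.20 relative to the median gene (63.1 and 62.5 CPM), Gm47439 at -0.29, Spata7 at 0.01, Ptpn21 at -0.28 and Zc3h14 at 0.19. Gm47566, an antisense gene (chr12:98274732-98279661) on the opposite strand to exon 2 of Gpr65, was at -2.94, with 353 WT and 56 Pac1-/- UMIs. These were 1.59% and 0.62% of the Gpr65 UMIs. Whether the counting kept strands apart was not stated in the sources used here.

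Clusters made within each library without Gpr65 as an input placed the gene highest in the cells with the most Il5, Calca and Crem. In WT, cluster 2 (1169 cells, led by Il5, Akap12, Calca, Crem and Cxcl3) stood at 893 CPM (868 to 919) and cluster 7 (691 cells, led by Tph1, Pak1 and Il5) at 619 CPM (601 to 637). Cluster 7 had a median of 9643 UMIs and 16.6% predicted doublets, beside 4169 UMIs and 0.34% in cluster 2. Cluster 2 held 13.9% of the WT cells and 20.9% of their Gpr65 UMIs. In Pac1-/- ILC2s, cluster 6 (537 cells, led by Il5, Il13, Crem and Ramp3) stood at 471 CPM (447 to 495), and held 7.58% of the cells and 17.0% of the Gpr65 UMIs. No other Pac1-/- cluster was above 184.7 CPM, so the step from the highest cluster to the next was larger there than in WT. The 2 libraries were clustered apart and no cluster of one stands for a cluster of the other.

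The order of the other clusters did not follow Il5 and Crem throughout. Among clusters of 50 cells or more, WT cluster 0 (1521 cells) was lowest at 154.2 CPM and cluster 4 (950 cells, led by Slfn5 and Txnip) next at 202 CPM, although cluster 4 had less Il5 (105.5 against 140.3 CPM) and less Crem (63.9 against 100.5 CPM). Pac1-/- cluster 0 (1238 cells) was at 60.8 CPM and cluster 8 (344 cells, led by Actn2, Mcpt8 and Lgals3) at 66.2 CPM. Pac1-/- cluster 1 (1100 cells) had the least Il5 (46.5 CPM) and Crem (28.1 CPM) of the Pac1-/- clusters of this size and stood at 120.7 CPM of Gpr65. The heat-shock clusters led by Hspa1b or Dnajb1 were at 383 CPM in WT and 141.8 CPM in Pac1-/-, with 181.0 and 67.6 CPM of Il5. Clusters 1 in WT (361 CPM) and 2 in Pac1-/- (184.7 CPM) were the deepest, with medians of 14113 and 16333 UMIs, and 36.6% and 21.3% of their cells were predicted doublets. Small clusters with the B cell markers Cd79a and Ebf1 (B-like; 26 and 21 cells) stood at 167.2 CPM (112 to 240) and 50.7 CPM (20.4 to 104). A WT cluster of 21 stromal-like cells, which also had the endothelial markers Cdh5 and Cldn5, stood at 98.4 CPM (47.2 to 181). A Pac1-/- cluster of 23 cells led by Mgp and Inmt had the stromal markers Col1a1, Col1a2, Col3a1, Dcn and Pdgfra. It held 1 Gpr65 UMI, 17.3 CPM (0.44 to 96.2). Another Pac1-/- cluster of 21 cells, led by Hpgd, Ccl21a and Ramp2, had the endothelial markers Pecam1, Cdh5, Cldn5 and Kdr. It stood at 43.4 CPM (11.8 to 111). The intervals of these 3 clusters reached the levels of cluster 0 of their library, so they are too small to set a level of stray Gpr65 RNA apart from the lowest large clusters.

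**Figure D5:**
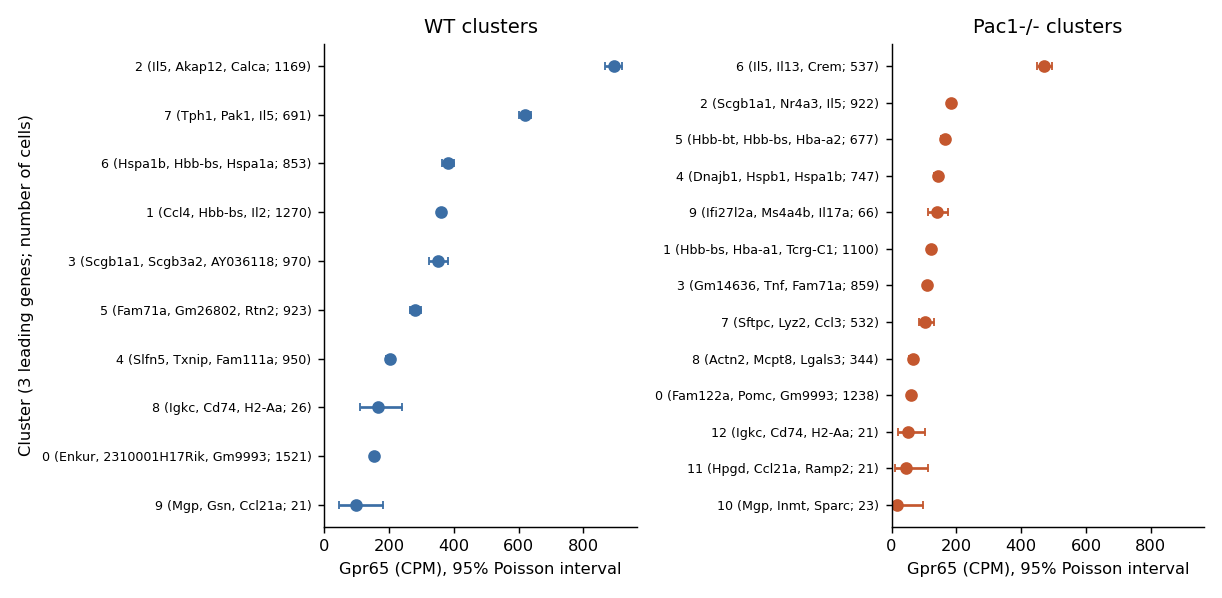
Gpr65 level in CPM with its 95% Poisson interval (x axis) for each of 10 WT and 13 Pac1-/- clusters (y axis, with 3 leading genes and the number of cells), clustered apart and without Gpr65. The highest WT cluster stands at 893 CPM and the highest Pac1-/- cluster at 471 CPM, and both are led by Il5.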

How the data were processed

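The authors deposited raw counts, that is, UMIs per gene and barcode, made with Cell Ranger against mm10 (version 6.1.1 in the submitters' notes and 4.0.0 in the file headers). No normalization had been applied, and UMIs remove PCR copies. UMIs were summed over cells with at least 500 genes and at most 10% mitochondrial UMIs and divided by their total (CPM). Predicted doublets (730 WT and 538 Pac1-/- cells) were kept and left out as an alternative. For comparisons of cells, each was thinned to 1500 UMIs (of 500, 1000, 1500, 2000 and 3000, the deepest at which 90% of either library stayed). Intervals are exact (Poisson, conditional binomial, Clopper-Pearson). Leiden clusters used 2000 variable genes, 30 components, 15 neighbours and resolution 1. With 1 library per genotype no p-values were computed. The statistic for genes that go along was tested on simulated data. Python 3.11.15, numpy 2.4.6, scipy 1.17.1, scikit-learn 1.9.0 and leidenalg 0.10.2 were used.

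Gpr65 and the gene lists were chosen with earlier results of these data known. Genes named were Gpr65, the genes used to divide cells, the members of the lists, the 12 highest and 12 lowest companions and the genes within 500 kb; genes named outside this rule (the 8 genes set beside Gpr65 in cells with both cytokines, leading genes of clusters, the lowest abundant ratios, the strongest correlations) were chosen after their values were seen. A few genes are not reported here, and members of the lists among them were left out of the counts and medians. GENCODE vM21 matched 99.6% of the gene identifiers.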

Additional observations from a re-analysis of the deposited data

Results flagged for a closer look

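For 2 of the genes used to divide cells, the Gpr65 level in positive over negative cells had opposite signs in the 2 libraries, a difference between groups that was not tested. For S1pr1 the log2 ratio was 0.57 in WT and -0.34 in Pac1-/- ILC2s, on 74 and 42 positive cells. For Klf2 it was 0.17 in WT and -0.091 in Pac1-/-. Over 20 further thinnings the ratio for S1pr1 ran from -0.07 to 0.73 in WT and from -0.90 to 0.70 in Pac1-/-, and that for Klf2 from -0.09 to 0.25 and from -0.08 to 0.36, so both signs occurred in each library.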

How the results depend on the processing

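No paired analysis was possible because each genotype had 1 library, which also left no replicate to leave out. The overall log2 ratio of -1.40 became -1.33 without cells over 2 times the median UMIs, -1.35 as the mean of per-cell CPM, -1.58 relative to the median gene and, chosen after seeing the data, -1.46 with equal numbers of cells in 50 bins of depth; all other filters left it within its counting interval. The share of Gpr65-positive cells moved with depth, to 28.2% (WT) and 13.2% (Pac1-/-) at 1000 UMIs, 57.2% and 31.7% at 3000 UMIs and 64.0% and 49.9% without thinning. Pac1-/- was lower in all 8 strata under each of the 5 alternatives, and of 40 single values 29 stayed within their interval and 11 moved, between -1.47 and -0.65. In cells with both Il5 and Il13 (alternatives chosen after seeing the data) the log2 ratio was -0.58 with 2 or more UMIs, -0.99 at 1000 UMIs, -0.80 at 3000 UMIs, -1.23 without thinning, -0.24 (-0.56 to 0.07) without cells over 2 times the median UMIs, and -0.31 without predicted doublets. The count of genes that went along in both libraries was 223 when positive meant 2 or more Gpr65 UMIs (252 Pac1-/- cells), 49 at 1000 UMIs and 54 in the lowest of 20 further thinnings; that of genes that went against was 157, 25 with 1 CPM added instead of 10, and 1 in the lowest further thinning. The cause of these shifts was not tested.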
